A study of Mus musculus with 8 samples.

Results

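Cytosolic nucleic acid sensing was described here through 8 genes, Sting1, Tbk1, Ikbke, Irf3, Mavs, Ddx58, Ifih1 and Ifnb1, among 22180 gene symbols measured in brain endothelial cells (BECs) of mice. These genes were selected with their difference between subarachnoid haemorrhage (SAH) and sham already known, so that difference is given for them as a description, with no p-value, and their calls by limma are listed with nothing read from them. Each of the 8 genes had 1 probe set with a single gene symbol, and all 8 were kept with no filter on low values. The SAH group was formed by 4 male FVB/NJ mice aged 12 weeks in which 80 microL of blood was injected in front of the optic chiasm. The sham group was formed by 4 male FVB/NJ mice of the same age in which the needle was inserted without blood. Brains were taken at 24 h, and viable CD45–CD31 + BECs of the left hemisphere were isolated with magnetic beads after meninges, cerebellum, brainstem and myelin had been removed. RNA of each mouse was amplified and hybridized to its own Affymetrix Mouse Gene 2.0 ST array, with no pooling, and all values below are log2 intensities after robust multi-array average (RMA) normalization by the authors.

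Cells detect DNA and RNA that lie in the cytosol through 2 branches that meet at shared kinases. In the DNA branch, the enzyme cGAS binds double-stranded DNA and makes the cyclic dinucleotide cGAMP, which activates the adaptor STING, encoded by Sting1, on the endoplasmic reticulum. In the RNA branch, the helicases RIG-I (Ddx58) and MDA5 (Ifih1) signal through MAVS on the mitochondrial outer membrane. Both adaptors recruit the kinases TBK1 and IKKε (Ikbke), which phosphorylate the transcription factor IRF3, and IRF3 with NF-kappaB turns on Ifnb1, the gene of interferon-β. Secreted interferon then acts through the interferon receptor and STAT proteins on a large set of interferon-stimulated genes.

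The 8 genes did not move together. Sting1 was much higher after SAH, Ikbke was moderately higher, and the other 6 genes differed by no more than 0.23 on the log2 scale in either direction. Of the 8 genes, limma called 2 as higher and 0 as lower at an adjusted p under 0.05, and the remaining 6 were not called. Over all 25341 probe sets with a gene symbol, 3.18% were called, 1.90% as higher and 1.28% as lower after SAH. Since the genes were selected on this contrast, nothing is read from that count. The median log2 change of the 8 genes was 0.19, beside a median of -0.02 over all tested probe sets.

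Sting1 had log2 intensities of 6.60, 7.61, 7.23 and 6.82 in SAH replicates 1 to 4, against 3.89, 4.72, 4.17 and 4.41 in sham replicates 1 to 4. All SAH arrays lay above all sham arrays, and the lowest SAH array was 1.88 above the highest sham array. The groups did not overlap for 8.99% of all tested probe sets. Sting1 averaged 7.07 ± 0.45 after SAH and 4.30 ± 0.36 in sham animals (SD, n = 4 each), giving a log2 change of 2.77 (SE 0.23) or 6.82-fold. It ranked at place 14 among all tested probe sets by log2 change. The sham values lay close to the array medians of 4.23 to 4.30, so background correction can move the size of this difference. With 16 added to each linear intensity, which damps changes of dim probe sets, the log2 change was 2.07. Within the SAH group, the values of Sting1 spanned 1.01, which is less than the gap between the groups.

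**Figure D1:**
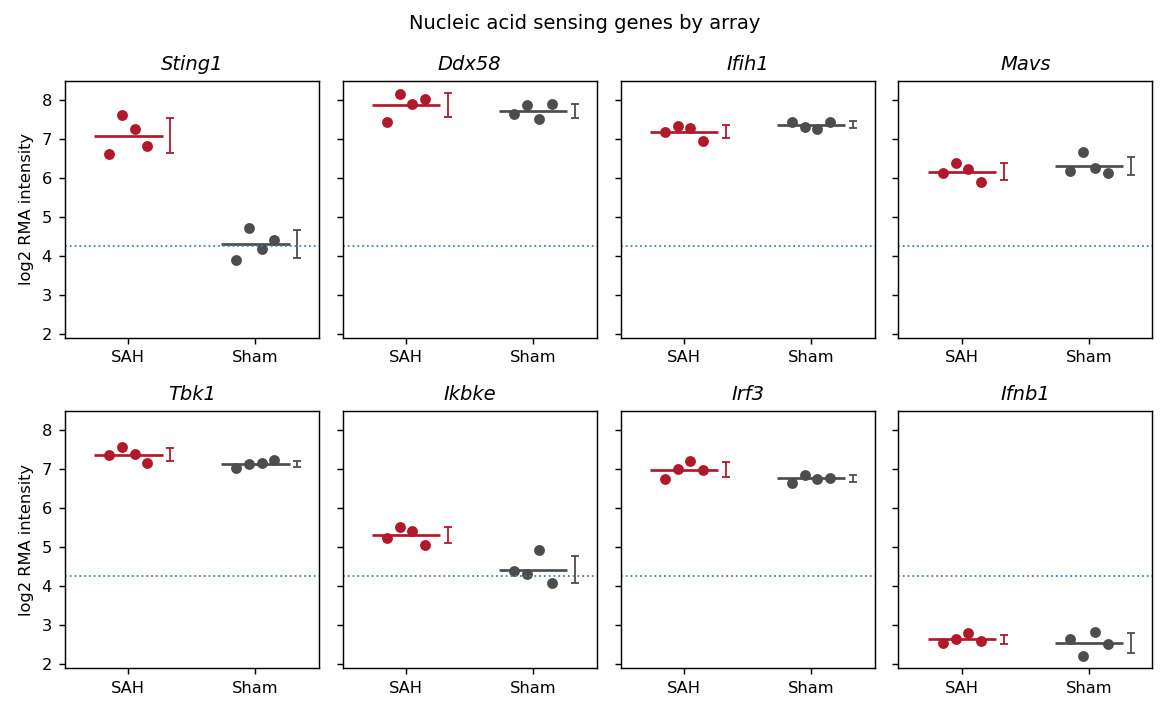
Log2 RMA intensity (y axis) of the 8 nucleic acid sensing genes in the 4 SAH arrays (red) and the 4 sham arrays (grey), with replicates 1 to 4 drawn side by side in each group. Horizontal lines are group means, bars beside them are 1 SD, and the dotted line is the median of the whole table (4.26). Sting1 and Ikbke are the genes whose groups do not overlap, and Ifnb1 lies below the dotted line in all 8 arrays.

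The isolated cells carried the endothelial marker genes throughout. The mean log2 intensity of 14 endothelial genes was 9.54 to 9.69 in SAH arrays and 9.62 to 9.78 in sham arrays, with Tek (log2 change -0.99) and Kdr (-0.78) called lower and 0 called higher. Genes of microglia and macrophages, cells in which Sting1 is also expressed, moved with the SAH group. All 17 measured genes of that list had a positive log2 change with a median of 0.49, and limma called 4 of them, Ctss (1.46), Tyrobp (1.39), Fcer1g (0.98) and C1qc (0.67), as higher and 0 as lower. For the marker lists too, the shares over all tested probe sets were 1.90% called higher and 1.28% called lower. The summed linear intensity of the list was 1096 to 1537 after SAH and 761 to 907 in sham animals. Ptprc, the gene of CD45, by which leukocytes were depleted, had log2 intensities of 3.16, 3.63, 4.23 and 3.48 after SAH and 3.21, 2.64, 2.96 and 2.98 in sham animals, all below the table median of 4.26. Ptprc and Cd163 had means below that median in both groups.

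Sting1 and the microglia and macrophage list did not have the same order within the groups. The mean log2 intensity of the list was 5.74, 5.47, 5.89 and 5.65 in SAH replicates 1 to 4 and 5.25, 5.03, 5.15 and 5.17 in sham replicates 1 to 4. In each group the list was lowest in replicate 2, the array in which Sting1 was highest. An order of 4 arrays is a description only, and the single genes varied in this. Of the 17 genes, 12 were lowest in replicate 2 among SAH arrays, 7 in replicate 2 among sham arrays and 6 in both. The part of these cells in the higher Sting1 of the SAH group was not tested. In RNA of a mixed isolate, more cells of a type and more RNA per cell cannot be told apart. Among neutrophil and monocyte genes, S100a8 (2.07) and S100a9 (1.21) were called as higher, and 9 of the 12 genes of that list had means below the table median in both groups. The median log2 change of that list was 0.13, with 9 genes positive and 3 negative. Kcnj8 of the pericyte list (0.96) and Dcn of the fibroblast list (1.37) were also called as higher. The median log2 change was 0.24 for the pericyte list (7 genes positive, 1 negative) and 0.04 for the fibroblast list (5 positive, 2 negative). No gene of the lymphocyte, smooth muscle, astrocyte, oligodendrocyte, neuron, red blood cell and platelet lists was called. These 7 lists held 42 measured genes, of which 3 had an unadjusted p under 0.05 and 0 passed the methods' t-test. Of the 8 fits that omit 1 array each, the call of S100a9 was lost in 6, those of Fcer1g and S100a8 in 5, that of Kcnj8 in 4 and that of Kdr in 2, while Ctss, Tyrobp, C1qc, Dcn and Tek stayed called in all 8. Under the methods' t-test none of the 10 called marker genes passed, and with the mouse number of the labels as a block Tek, C1qc, Fcer1g, S100a8 and S100a9 did not.

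**Figure D2:**
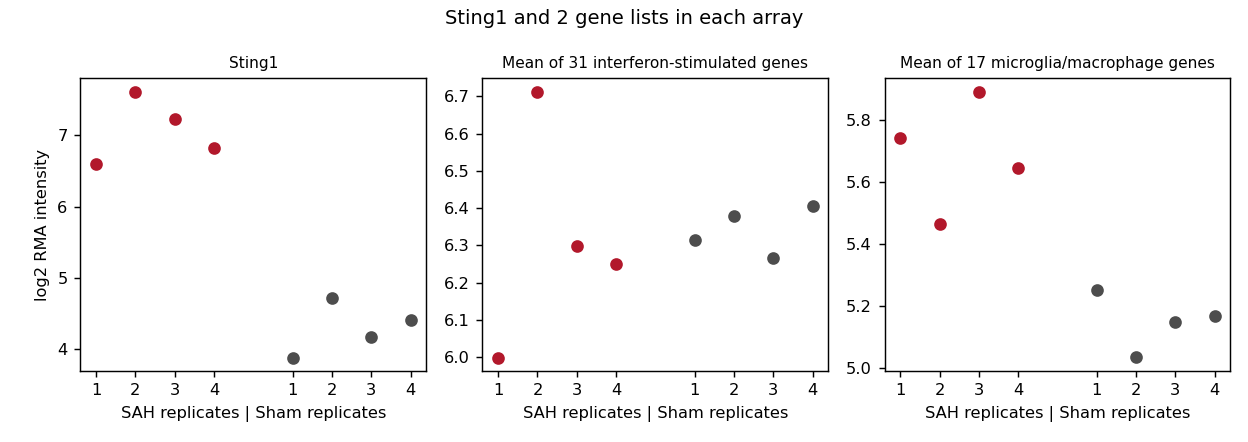
Log2 RMA intensity (y axes, each with its own range) of Sting1, mean of 31 interferon-stimulated genes and mean of 17 microglia and macrophage genes in each SAH array (red) and sham array (grey). In the SAH group, Sting1 and the interferon-stimulated genes are highest in replicate 2 and lowest in replicate 1, and the microglia and macrophage list is lowest in replicate 2.

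For Ddx58, Ifih1 and Mavs, the genes of the RNA branch, the SAH and sham arrays overlapped. Ddx58, the gene of the RIG-I helicase that binds short RNA with 5′ phosphates, had values of 7.43, 8.13, 7.89 and 8.02 after SAH and 7.63, 7.85, 7.51 and 7.88 in sham animals. The groups overlapped, and the log2 change was 0.15 (SE 0.16). Ifih1, the gene of the MDA5 helicase that binds long double-stranded RNA, had values of 7.16, 7.32, 7.27 and 6.95 after SAH and 7.44, 7.31, 7.25 and 7.43 in sham animals. Its log2 change was -0.18 (SE 0.11), the lowest of the 8 genes. Mavs, the adaptor of both helicases, measured 6.13, 6.38, 6.24 and 5.88 after SAH and 6.16, 6.65, 6.26 and 6.12 in sham animals. The Mavs values overlapped, with a log2 change of -0.14 (SE 0.15).

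Both of the related kinases had a positive log2 change, 0.88 for Ikbke and 0.23 for Tbk1. Ikbke, the inducible kinase of the pair, had values of 5.23, 5.51, 5.41 and 5.06 after SAH and 4.39, 4.32, 4.91 and 4.07 in sham animals. The groups did not overlap, but the lowest SAH array was only 0.15 above the highest sham array. Ikbke averaged 5.30 ± 0.20 after SAH and 4.42 ± 0.35 in sham animals (SD, n = 4 each), giving a log2 change of 0.88 (SE 0.17). The call of Ikbke was lost when SAH replicate 3 (log2 change 0.84), Sham replicate 1 (0.87) or Sham replicate 2 (0.85) was left out, under the methods' t-test, and when unnamed probe sets entered the adjustment as well. Tbk1, the kinase that most cell types express at a steady level, had values of 7.36, 7.55, 7.38 and 7.14 after SAH and 7.02, 7.13, 7.14 and 7.22 in sham animals. Of the SAH arrays, replicates 1 to 3 lay above all sham arrays and replicate 4 did not, and the log2 change of Tbk1 was 0.23 (SE 0.11).

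Irf3, the factor that both kinases phosphorylate, had values of 6.73, 7.00, 7.20 and 6.97 after SAH and 6.65, 6.85, 6.75 and 6.77 in sham animals. The groups overlapped through SAH replicate 1, and the log2 change was 0.22 (SE 0.12). IRF3 activity is set by phosphorylation, which an array of RNA does not measure. Ifnb1, the interferon gene at the end of the pathway, had values of 2.53, 2.63, 2.80 and 2.59 after SAH and 2.64, 2.20, 2.81 and 2.53 in sham animals. All 8 values were below the table median of 4.26, and the log2 change was 0.09 (SE 0.13). The groups overlapped for Ifnb1, and how small a difference could be seen at this low signal was not examined.

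The upstream sequences of Ikbke, Tbk1 and Ifnb1 show which known motifs lie near the starts of the kinase genes and of the interferon gene they act on. Each sequence runs from 250 bases before to 10 bases after the annotated start, in RefSeq annotation of GRCm38.p6, on the minus strand, at chr1:131279554-131279813 for Ikbke, chr10:121586785-121587044 for Tbk1 and chr4:88522785-88523044 for Ifnb1. Capitals mark matches to 5 searched motifs, on either strand.
Ikbke: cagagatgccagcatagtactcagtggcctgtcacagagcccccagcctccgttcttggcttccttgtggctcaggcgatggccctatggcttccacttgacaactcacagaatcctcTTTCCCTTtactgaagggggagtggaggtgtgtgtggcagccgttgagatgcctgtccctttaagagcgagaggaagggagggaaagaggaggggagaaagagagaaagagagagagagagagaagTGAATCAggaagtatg
Tbk1: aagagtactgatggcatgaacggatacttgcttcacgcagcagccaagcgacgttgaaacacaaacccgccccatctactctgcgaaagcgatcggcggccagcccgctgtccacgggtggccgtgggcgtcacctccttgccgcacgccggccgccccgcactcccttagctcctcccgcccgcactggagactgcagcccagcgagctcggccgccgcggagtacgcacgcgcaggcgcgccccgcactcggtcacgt
Ifnb1: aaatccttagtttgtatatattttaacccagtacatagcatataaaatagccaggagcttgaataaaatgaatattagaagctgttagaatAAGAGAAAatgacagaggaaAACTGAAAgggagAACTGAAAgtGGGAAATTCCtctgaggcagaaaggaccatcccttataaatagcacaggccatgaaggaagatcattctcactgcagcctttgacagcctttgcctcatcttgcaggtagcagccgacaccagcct
The motifs were NF-kappaB, the interferon-stimulated response element (ISRE, GAAANN followed by GAAA), the core bound by interferon regulatory factors (IRF core, AANNGAAA, which every ISRE match also contains), the STAT-bound GAS element (TTCNNNGAA) and AP-1 (TGANTCA). In windows of 250 bases before to 50 bases after the start, they occurred in 4.51%, 3.44%, 23.9%, 8.30% and 7.81% of 32851 RefSeq promoters, in that order. The Ikbke window held an AP-1 match at -6 and an IRF core match at -132 relative to the start. The Tbk1 window held no match to any of the 5 motifs, and neither did those of Mavs and Irf3. The Ifnb1 window held an NF-kappaB match at -116 and IRF core matches at -159, -139 and -126, which lie close together in the printed sequence. The windows of Ddx58 and Ifih1 each held an ISRE match, at 3 and 33 bases after the start. Of the 8 genes, 7 had a promoter entry, and Sting1 is named only. A match describes letters in a window and not a bound site.

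Genes around the 8 were followed through 10 lists of the same pathway that name 174 genes. Values were at hand for 154, and 20 are not analysed here. After SAH, limma called 4 of the 154 genes as higher and 4 as lower at its adjusted p of 0.05. Over all tested probe sets 1.90% were called higher and 1.28% lower, and no claim about the lists is drawn from so few calls. These shares include more dim probe sets than the lists do. Means were below the table median in both groups for 17 of the 154 genes, against 11077 of the 25341 probe sets. With a filter on dim probe sets, 930 of 13894 were called in either direction. The median log2 change was 0.03 over the lists, and 37 of the 154 genes had an unadjusted p under 0.05, as did 3581 of the 25341 tested probe sets. For all 8 called genes, the SAH arrays did not overlap with the sham arrays, which a call on the same arrays makes likely. The groups did not overlap for 8.99% of all tested probe sets. None of the 8 passed the methods' t-test after adjustment. The study's methods describe the processing of an SAH and a sham hemisphere on the same day as typical, and the labels do not say which arrays share a day. With the mouse number of the labels as a block, over the arrays whose number occurs in both groups, Smpdl3a was still called and the other 7 were not.

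**Figure D3:**
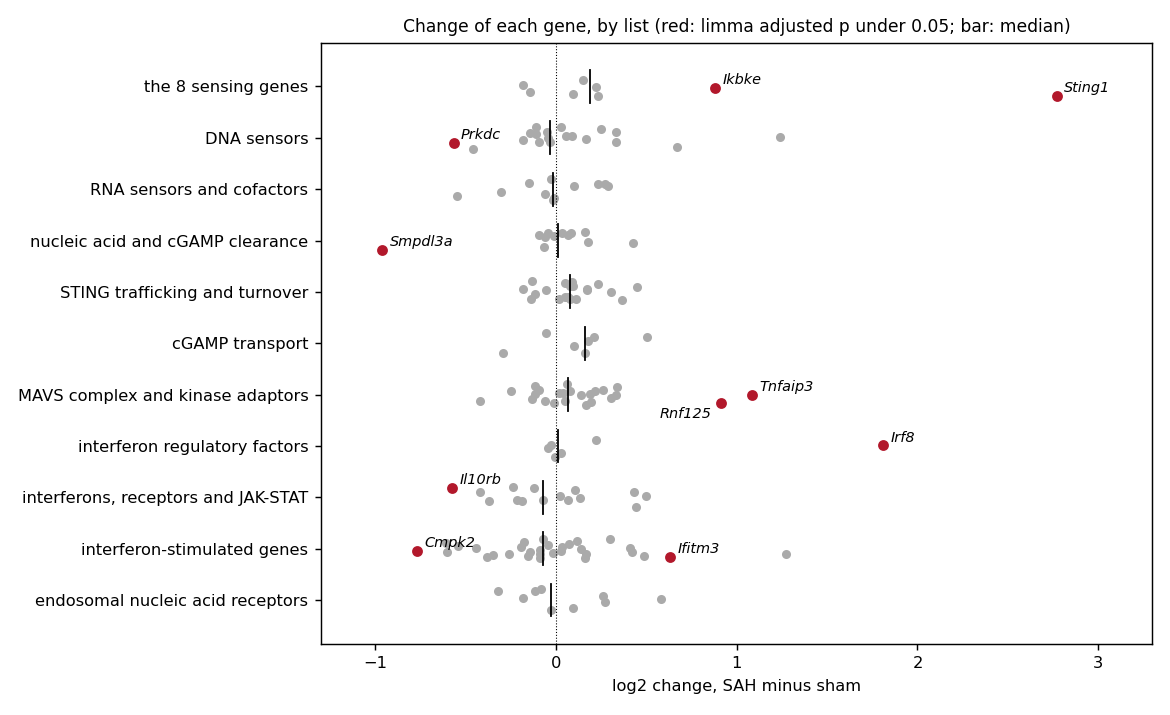
Log2 change, SAH minus sham (x axis), of each measured gene, with 1 row for the 8 nucleic acid sensing genes and 1 for each of 10 pathway lists. Red points with names are genes that limma called at an adjusted p under 0.05, grey points are the others, and black bars are list medians, which lie between -0.07 and 0.19. Sting1 lies furthest to the right at 2.77.

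Upstream of Sting1, limma called 1 of 19 DNA sensors as lower and 0 as higher, beside 3.18% of all tested probe sets called in either direction. The median log2 change of the list was -0.03. Cgas, which makes the ligand of STING, had values of 3.35, 3.64, 3.53 and 3.65 after SAH and 2.90, 3.70, 3.17 and 3.07 in sham animals. All of these lay below the table median, and the difference of 0.33 (SE 0.16) was not called (limma adjusted p = 0.389). Prkdc, the catalytic subunit of DNA-dependent protein kinase, fell to 4.96, 5.03, 5.09 and 4.87 after SAH, against 5.46, 5.55, 5.52 and 5.70 in sham animals, with a log2 change of -0.57 (SE 0.10, limma adjusted p = 0.0112). Among the 11 RNA sensors and cofactors, limma called 0, while 4 had an unadjusted p under 0.05 and 0 passed the methods' t-test. The gene of this list furthest from 0 was the helicase Ddx60, with a log2 change of -0.55 (limma adjusted p = 0.204), followed by Rnf135, a ubiquitin ligase for RIG-I, with -0.30.

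Genes that clear nucleic acids or cGAMP had a median log2 change of 0.01, with 1 of 12 lower and 0 higher. Of all tested probe sets, 1.28% were called lower and 1.90% higher. Smpdl3a, a phosphodiesterase that can cleave cGAMP outside cells, fell to 6.83, 6.59, 7.15 and 6.61 after SAH, against 7.76, 7.84, 7.66 and 7.75 in sham animals. Its log2 change was -0.96 (SE 0.13, limma adjusted p = 0.00266), and its other probe set had one of -0.53 that did not pass (limma adjusted p = 0.0613). Fen1, a flap endonuclease, had the next largest difference in this list, 0.43 (limma adjusted p = 0.0747). Of 7 genes for cGAMP transport across membranes, limma called 0, although 2 had an unadjusted p under 0.05, and 0 passed the methods' t-test. Lrrc8a, the obligatory subunit of volume-regulated anion channels, had a log2 change of 0.51 with no overlap of the groups (limma adjusted p = 0.0764), and its partner Lrrc8e had one of -0.29. The 20 genes of STING trafficking and turnover likewise held 0 called genes (3 with an unadjusted p under 0.05, 0 by the methods' t-test), led by Surf4 with a log2 change of 0.45 and Tmed2 with 0.36. Both encode proteins of the early secretory pathway, through which STING travels.

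Downstream of the adaptors, the called genes of the MAVS and kinase list were Tnfaip3 and Rnf125. Tnfaip3, the gene of the ubiquitin-editing enzyme A20 that restrains NF-kappaB and TBK1 signalling, rose to 7.88, 7.54, 7.82 and 7.06 after SAH, against 6.41, 6.34, 6.24 and 6.97 in sham animals. The log2 change was 1.08 (SE 0.20, limma adjusted p = 0.0145), with SAH replicate 4 the lowest of its group and Sham replicate 4 the highest of its own. Rnf125, a ubiquitin ligase that marks RIG-I and MAVS for degradation, rose to 10.62, 10.50, 10.65 and 10.31 after SAH, against 9.51, 9.35, 9.53 and 10.04 in sham animals, with a log2 change of 0.91 (SE 0.15, limma adjusted p = 0.00762). Here too replicate 4 of each group lay nearest to the other group. The list held 24 genes, of which 2 were higher and 0 were lower, with a median log2 change of 0.07. Over all tested probe sets 1.90% were called higher and 1.28% lower. The adaptor genes Azi2 (0.34) and Traf5 (-0.42) had the largest differences among genes that were not called.

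Of 6 further interferon regulatory factors, 1 was higher and 0 were lower, beside 1.90% and 1.28% of all tested probe sets. Irf8, a factor of myeloid cells, rose to 5.90, 6.59, 6.72 and 6.47 after SAH, against 5.01, 3.90, 4.64 and 4.89 in sham animals. Its log2 change was 1.81 (SE 0.24, limma adjusted p = 0.00224), and its other probe set had one of 0.61 that did not pass (limma adjusted p = 0.0524). The higher microglia and macrophage genes described above moved with Irf8 between the groups, and their part in it was not tested. In the sham arrays Irf8 and the mean of that list were both highest in replicate 1 and lowest in replicate 2. In the SAH arrays both were highest in replicate 3, but Irf8 was lowest in replicate 1 and the list in replicate 2, and the other probe set of Irf8 was highest in replicate 4 of each group. Irf7, the interferon-induced partner of Irf3, had values of 6.05, 6.65, 6.69 and 6.22 after SAH and 6.60, 6.26, 6.34 and 6.43 in sham animals, with a log2 change of -0.0031 (SE 0.15, limma adjusted p = 0.996). Irf2 (0.22) and Irf4 (-0.05) were the genes furthest from 0 after Irf8.

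Among interferons, their receptors and JAK-STAT genes, 1 of 15 was lower and 0 were higher, beside 1.28% and 1.90% of all tested probe sets. An unadjusted p under 0.05 was found for 6 of the 15, and the log2 change was positive for 7 and negative for 8. Il10rb, a receptor chain shared by interferon-λ and interleukin-10, fell to 8.27, 8.32, 8.28 and 8.12 after SAH, against 8.83, 9.01, 8.85 and 8.60 in sham animals. The log2 change was -0.57 (SE 0.11, limma adjusted p = 0.0181), and the call was lost when SAH replicate 4 (-0.53), Sham replicate 2 (-0.51) or Sham replicate 3 (-0.56) was left out. Jak1, the kinase used by all interferon receptors, had a log2 change of 0.50 (limma adjusted p = 0.118), and Ifngr2, a chain of the interferon-γ receptor, had one of 0.44 (adjusted p = 0.156). Ifngr2 passed when Sham replicate 1 was left out. The interferon receptor gene Ifnar1 had a log2 change of -0.37 with no overlap of the groups (limma adjusted p = 0.170). The 9 endosomal receptor genes held 0 called genes (1 with an unadjusted p under 0.05, 0 by the methods' t-test), and Myd88, the adaptor of most Toll-like receptors, came nearest with a log2 change of 0.58 and no overlap (limma adjusted p = 0.0750). Irak1, a kinase that acts after Myd88, had a log2 change of -0.32.

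Of 31 interferon-stimulated genes, limma called 1 as higher and 1 as lower, beside 3.18% of all tested probe sets called in either direction. A positive log2 change was found for 13 and a negative one for 18, and the median was -0.07. The unadjusted p was under 0.05 for 10 of the 31, beside 3581 of the 25341 tested probe sets. With no overlap of the groups, 5 genes were lower after SAH and 1 was higher, beside 1134 and 1144 of all tested probe sets. The 5 were Cmpk2, Mx2 (-0.54, limma adjusted p = 0.0655), Usp18 (-0.44, adjusted p = 0.115), Sp100 (-0.38, adjusted p = 0.103) and Rtp4 (-0.35, adjusted p = 0.152). Of these 5, limma called only Cmpk2. Ifitm3, a membrane protein that limits virus entry, rose to 11.43, 11.69, 11.67 and 11.56 after SAH, against 10.96, 11.08, 10.67 and 11.10 in sham animals. Its log2 change was 0.63 (SE 0.12, limma adjusted p = 0.0169), and it lost its call without SAH replicate 3 (0.60). Cmpk2, a mitochondrial nucleotide kinase that interferon induces, fell to 5.80, 5.74, 5.61 and 5.84 after SAH, against 6.32, 6.30, 6.91 and 6.53 in sham animals, with a log2 change of -0.77 (SE 0.14, limma adjusted p = 0.0126).

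The SAH arrays differed among themselves in this list more than the sham arrays did. The mean log2 intensity of the 31 genes was 6.00, 6.71, 6.30 and 6.25 in SAH replicates 1 to 4, and 6.31, 6.38, 6.27 and 6.40 in sham replicates 1 to 4. SAH replicate 2 was the highest SAH array for 19 of the 31 genes, where it was the highest for 23.6% of all tested probe sets. SAH replicate 1 was the lowest for 19 of the 31 genes, beside 24.3% of all tested probe sets. The genes that stood out most in SAH replicate 2, chosen after their values were seen, were the immunity-related GTPases Iigp1 and Igtp and the chemokine Cxcl10. Iigp1 had 9.29 in this array, against 5.76 to 7.00 in the other SAH arrays and 6.62 to 7.22 in sham arrays. Cxcl10, a chemokine that attracts T cells, had 7.47 in this array, against 4.26 to 5.29 in the other SAH arrays and 3.75 to 4.51 in sham arrays, and Igtp had 8.57, against 6.12 to 6.96 and 6.45 to 7.11. The DNA sensors Zbp1 (6.90, against 4.53 to 5.60 and 4.60 to 5.07) and Ifi204 (4.97, against 2.24 to 3.14 and 1.85 to 2.48) stood out in the same array.

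**Figure D4:**
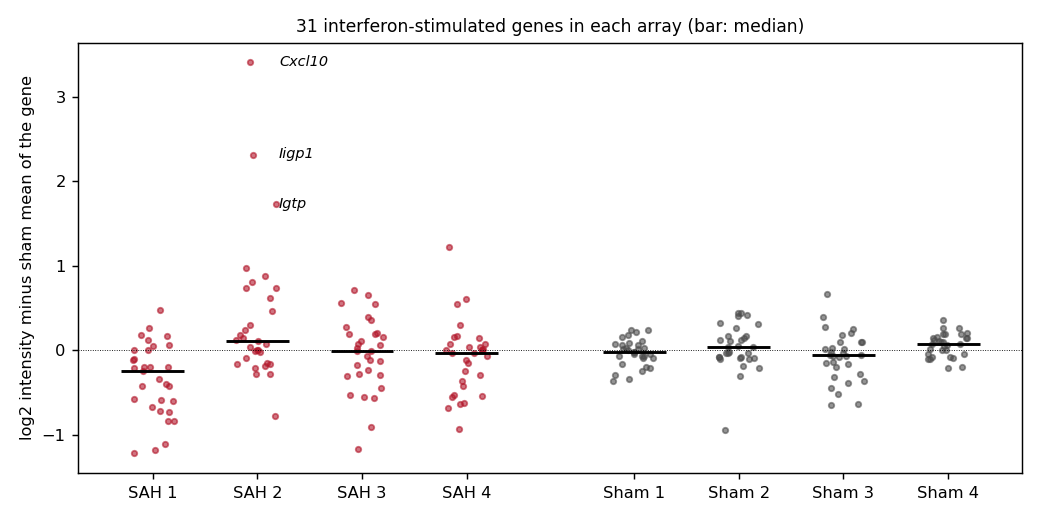
Log2 RMA intensity minus the sham mean of the same gene (y axis) for 31 interferon-stimulated genes in each SAH array (red) and sham array (grey), with the median as a black bar. The medians are -0.24, 0.11, -0.01 and -0.04 in SAH replicates 1 to 4, and Cxcl10, Iigp1 and Igtp stand far above the other genes in SAH replicate 2.

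The log2 changes of Cxcl10, Zbp1 and Ifi204 were smaller without that array. Leaving out the highest SAH array of a gene lowers its change by construction, so these values are a description only. Cxcl10 had a log2 change of 1.27 (SE 0.57, limma adjusted p = 0.341) with all arrays and 0.56 without SAH replicate 2. For Zbp1 the change was 0.67 (adjusted p = 0.490) with all arrays and 0.22 without it, and for Ifi204 it was 1.24 (adjusted p = 0.217) and 0.68. Outside SAH replicate 2, all values of Ifi204 lay below the table median of 4.26. With 16 added to each linear intensity, its log2 change over all arrays was 0.44. Ifit1, an interferon-induced protein that binds viral RNA, had a log2 change of -0.61 (limma adjusted p = 0.207) with all arrays, and of -0.85 without SAH replicate 2, where it passed (limma adjusted p = 0.0130). Without this array, the lower genes of the pathway lists numbered 8 in place of 4, with Ddx60, Ifit1, Mx2 and Gbp3 added, while the 4 higher genes were the same. Sting1 had a log2 change of 2.59 and Ikbke one of 0.81 without it.

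Among the 8 nucleic acid sensing genes, SAH replicate 2 was also the highest SAH array for 6, Irf3 and Ifnb1 being the exceptions with replicate 3. SAH replicates 1 and 4 were each the lowest for 4 of the 8. The SAH arrays had the same order, replicates 2, 3, 4 and 1 downward, for Sting1 and for the mean of the interferon-stimulated genes. In the sham arrays the orders differed, with Sting1 highest in replicate 2 and lowest in replicate 1, and the list highest in replicate 4 and lowest in replicate 3. An order of 4 arrays is a description, and the arrays share their RNA amplification and normalization.

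Genes with the profile most like that of Sting1 were sought among 12161 genes with a mean above the table median. The measure was the root mean square difference of log2 values over the 8 arrays, after each gene was centred on its own mean. The nearest were Upp1 (0.349), a uridine phosphorylase, Gpr182 (0.457), an endothelial receptor that binds chemokines, Vmp1 (0.527), a membrane protein of autophagy, Il1a (0.537), the gene of interleukin-1α, and Il4ra (0.552), a chain of the interleukin-4 receptor. Their log2 changes were 2.60, 2.58, 2.08, 2.18 and 1.90, in that order, as close to that of Sting1 as the measure selects for. None of these 5 genes stands on the pathway lists. Of the called genes of the pathway, Irf8 (0.713) came nearest, followed by Tnfaip3 (0.954), Rnf125 (1.01) and Ikbke (1.03). That is also the order of their log2 changes (1.81, 1.08, 0.91 and 0.88), on which the measure depends. Upp1 had values of 7.64, 8.06, 7.76 and 8.29 after SAH and 5.29, 5.47, 5.24 and 5.35 in sham animals. Its highest SAH array was replicate 4 and not replicate 2, so the order of the SAH arrays was not shared with Sting1.

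**Figure D5:**
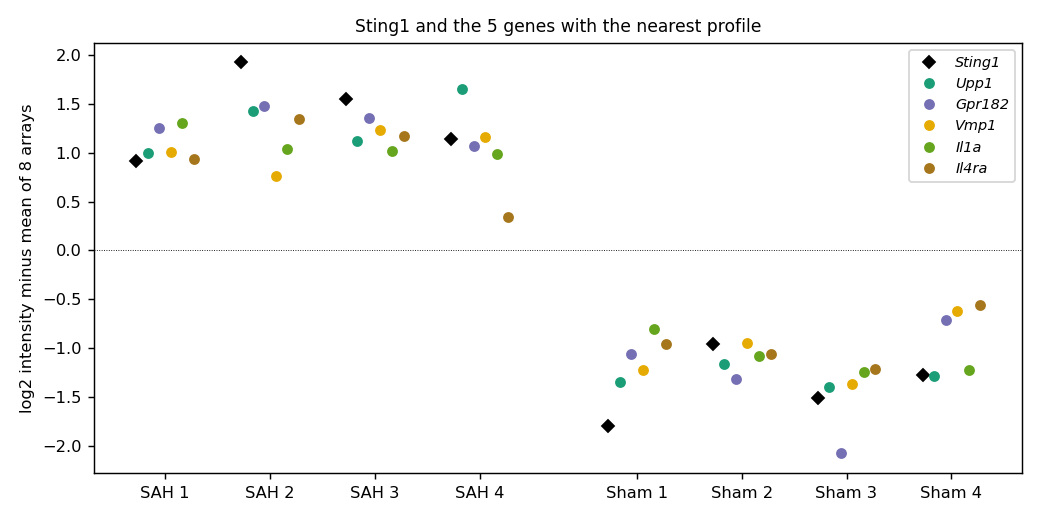
Log2 RMA intensity minus the mean of the 8 arrays (y axis) for Sting1 (black diamonds) and the 5 genes with the nearest profile (coloured circles) in each SAH and sham array. All 6 genes lie above 0 in every SAH array and below 0 in every sham array, and their order within the arrays differs.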

How the data were processed

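Per the labels and the study's methods, RNA of CD45–CD31 + BECs was amplified with the Ovation Pico WTA System and hybridized to 1 array per mouse, 4 SAH and 4 sham. The authors normalized the intensities with RMA in oligo under R 3.2.2. The deposited table gives log2 intensities for 41345 probe sets. Raw intensities were not used here. Array medians were 4.23 to 4.30, Pearson's r over probe sets was 0.984 to 0.989 within and 0.973 to 0.985 between groups, and the number of arrays limits the precision.

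SAH and sham were compared with limma 3.58.1 in R 4.3.3 over the 25341 probe sets with a gene symbol in the platform annotation. P values were adjusted by Benjamini-Hochberg, and genes under 0.05 were called. The 16004 other probe sets entered only an alternative. A gene was represented by its single-symbol probe set with the highest mean over all arrays. SE comes from the same fit. The fit was tested on simulated data. Replicates are separate mice per the study's methods. The study's supplement describes an SAH and a sham hemisphere as typically processed on the same day, but the labels do not tie arrays to days. Replicate and label numbers were therefore blocks in alternatives only.

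The genes, lists and rules were chosen with earlier results of these data known. Named were the 8 genes, all called genes of the pathway and marker lists, up to 2 genes per pathway list with the largest change that was not called, and the 5 genes nearest to Sting1. Other genes were named after their values were seen. Alternatives were the methods' t-test, trend and robust fitting, median centring, cyclic loess, all probe sets, a filter on dim probe sets, array weights, blocks by number, the mean of a gene's probe sets, 16 added to linear intensities, and leaving out each array. Motifs were searched in RefSeq promoters.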

Additional observations from a re-analysis of the deposited data

Results flagged for a closer look

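In the SAH group, replicate 3 stood apart from the other arrays for Lrrc8e, a subunit of volume-regulated anion channels, with a log2 intensity of 4.19 against 3.75 to 3.80 in the other SAH arrays. For Il1a, SAH replicate 1 stood apart with 6.31 against 6.00 to 6.05 in the other SAH arrays. A gap of this kind was looked for in 102 groups of 4 arrays (51 named genes), and chance gives it in about 1 group of 20.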

How the results depend on the processing

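Sting1 had log2 changes of 2.07 to 2.92 over the alternatives, given as a description since it was selected on this contrast. The count of 8 nucleic acid sensing genes called, 2, fell to 1 under the methods' t-test and with all probe sets tested, and was 1 to 2 when 1 array was left out. For the pathway lists, the 4 higher genes became 0 under the methods' t-test, 2 with all probe sets and 0 with the mouse number of the labels as a block (label number block), which uses only the arrays whose number occurs in both groups. The 4 lower genes became 0, 2 and 1 in these settings, and 3 to 8 when 1 array was left out. The 807 called probe sets became 86 under the methods' t-test, 353 with all probe sets, 275 with the label number block and 471 to 684 without 1 array. The count of 86 comes from that t-test as run here on the deposited values. It is far below the number of genes that the paper reports from its own t-tests, and the reason was not examined. The causes of the changed counts were not tested. Fewer arrays entered the label number block and the fits without 1 array, and more tests entered the setting with all probe sets. Some changes near 0 turned their sign. These were Ddx58 with the label number block (-0.0052), Ifnb1 without Sham replicate 2 (range over single arrays left out -0.022 to 0.18), and Irf4 with the label number block (0.026) and without SAH replicate 1, Sham replicate 1 or Sham replicate 3 (range -0.14 to 0.033). The replicate block gave 627 called probe sets and changed no call of the 8 genes or the pathway lists. Deviations of arrays with the same replicate number correlated at 0.02, 0.03, 0.03 and -0.06, and those with the same label number at 0.02, -0.04 and -0.06. Ifnb1 and Cgas lie below the array medians, and the sham values of Sting1 and the sham mean of Ikbke (4.42) lie near them. This limits what can be said of the size of their differences.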
